A study of Mus musculus with 6 samples.

Results

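Messenger RNAs for the proteins of the large (60S) subunit of the cytosolic ribosome were followed in the proximal end of the mouse incisor, in 3 control and 3 mutant mice. The members are 45 genes, from Rpl3 to Rpl41 with Rplp0, Rplp1 and Rplp2. They were chosen by name as large subunit proteins without pseudogenes, and not by their values. Earlier results of these data were known when the choice was made. All 45 had a column among the 19060 genes of the deposited count table, and all 45 passed the filter on low counts that left 15826 genes tested. The control mice are labelled wild type, and the paper calls them only control for the RNA sequencing. In other experiments its controls were Fgfr1fl/fl, whose loxP-flanked Fgfr1 alleles stay whole without Cre. The mutant mice were Gli1CreER;Fgfr1fl/fl, labelled Gli1-Cre;Fgfr1fl/fl, where Gli1+ cells carry a Cre that tamoxifen switches on. All mice were 1 month old, and tissue of both genotypes was taken 1 week after tamoxifen. The driver acts in the Gli1+ cells of the tooth, while the RNA came from the whole proximal end, so cells with an intact Fgfr1 gene are in every sample. In such bulk RNA, fewer cells of a type and less RNA per cell cannot be told apart.

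The large subunit joins amino acids into a chain at its peptidyl transferase centre, which is made of ribosomal RNA, and the chain leaves through a tunnel lined by RNA and proteins. Its proteins fold and tie the RNA, form the stalk that receives the elongation factors, build the contacts with the small subunit and surround the mouth of the tunnel. Cells make the proteins in matched amounts, and their mRNAs are known for the 5′ terminal oligopyrimidine (TOP) motif, a C at the first base followed by an unbroken run of pyrimidines, through which mTORC1 signalling controls their translation. RNA sequencing measures the level of these mRNAs and not their translation.

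The start of the transcript is shown first, since the TOP motif lies there. RefSeq promoter windows on GRCm38.p6, from 250 bases before to 50 bases after an annotated start, matched 34 of the 45 genes. A C at the start followed by at least 4 pyrimidines (C or T) stood at an annotated start of 7 of the 34 (20.6%), against 3.01% of the 27025 genes with a window. The 7 are printed here, 10 bases before and 20 bases from the start, with the run in capitals, followed by the same stretch of Rpl24 and Rpl4, the only members with a log2 fold change below 0, which hold no such run at the annotated base. Rpl24 and Rpl4 were picked by their fold change and do not stand for the 27 members without a run. Those 27 had log2 fold changes from -0.34 to 2.04 (median 1.04), and the 7 from 0.77 to 2.45 (median 1.32), so the ranges overlap. The windows lie at chr2:39005112-39005141 (Rpl35, minus strand), chr11:114668570-114668599 (Rpl38, plus strand), chr7:141447641-141447670 (Rplp2, plus strand), chr16:33056472-33056501 (Rpl35a, plus strand), chr9:120571507-120571536 (Rpl14, plus strand), chr14:18270967-18270996 (Rpl15, minus strand), chr7:4792955-4792984 (Rpl28, plus strand), chr16:55966265-55966294 (Rpl24, plus strand) and chr9:64173377-64173406 (Rpl4, plus strand).
Rpl35: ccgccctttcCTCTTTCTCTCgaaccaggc
Rpl38: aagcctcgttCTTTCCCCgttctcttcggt
Rplp2: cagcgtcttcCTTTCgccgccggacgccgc
Rpl35a: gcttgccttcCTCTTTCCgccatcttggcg
Rpl14: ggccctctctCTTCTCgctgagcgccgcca
Rpl15: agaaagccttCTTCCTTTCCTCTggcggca
Rpl28: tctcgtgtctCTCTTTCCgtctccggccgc
Rpl24: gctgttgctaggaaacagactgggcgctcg
Rpl4: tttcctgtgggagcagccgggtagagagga

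The longest run, 13 bases, was at the start of Rpl15, and the shortest, 5 bases, at that of Rplp2. Rpl35a has several annotated starts, of which the printed start alone holds the run. Over the whole 300-base window, CGGAAG, the core of an ETS factor motif, was found on either strand in 22 of the 34 members (64.7%) and in 18.8% of all genes with a window. GGGCGG, the core of the Sp1 motif, was found on either strand in 23 (67.6%) and in 38.2%, and TATAAA in 4 (11.8%) and in 15.7%. These are matches of letters in windows around annotated starts, which can lie some bases away from the start used in the incisor.

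The 3 control samples held 31060222 to 32712448 counts and the 3 mutant samples 5276557 to 11819576. The lowest count of any member in any sample was 1906 (Rpl24 in mutant 1), for which counting alone gives a relative error of 2.29%. Fgfr1, the targeted gene, was at 529, 924 and 434 CPM (counts scaled to a common library size, by the upper quartile) in the control samples and at 148, 318 and 262 CPM in the mutant samples (log2 fold change -1.37, standard error 0.40, unadjusted p = 0.00846, adjusted p = 0.0881 by edgeR's quasi-likelihood test), with no overlap. Ameloblast markers (Amelx, Ambn, Enam, Mmp20 and Klk4) held 8.97 to 12.5% of all counts in control and 2.83 to 6.02% in mutant samples, and odontoblast markers (Dspp, Dmp1, Col1a1 and Col1a2) 2.64 to 7.94% and 2.23 to 2.49%, so the labelled tissue was present in every sample. Markers of skeletal muscle held 0.338% in control 2, 0.56% in mutant 1 and 0.0924% in mutant 3, and at most 0.0165% elsewhere. Those of red blood cells held 0.0402 to 0.0977% in control and 0.0918 to 0.224% in mutant samples, and those of leukocytes 0.0104 to 0.0413% and 0.0188 to 0.0252%. The part of these differences in cell content in the results that follow was not tested.

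Large subunit protein mRNAs took up a larger part of the mutant libraries. Their share of all counts was 6.78, 2.81 and 5.03% in the control samples, with a mean of 4.87% ± 1.99 (SD, n = 3). It was 9.09, 9.33 and 9.43% in the mutant samples, with a mean of 9.28% ± 0.176 (SD, n = 3). Every mutant sample lay above every control sample, and the mean share was 1.91 times that of control. The lowest mutant share was 1.34 times the highest control share. Control shares differed 2.42-fold from lowest to highest and mutant shares 1.04-fold. The share is a part of a whole, and mitochondrially encoded mRNAs took 0.761 to 0.845% of control and 4.56 to 7.09% of mutant counts. Without those mRNAs the share of the large subunit was 2.83 to 6.84% in control and at least 9.78% in each mutant sample.

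**Figure D1:**
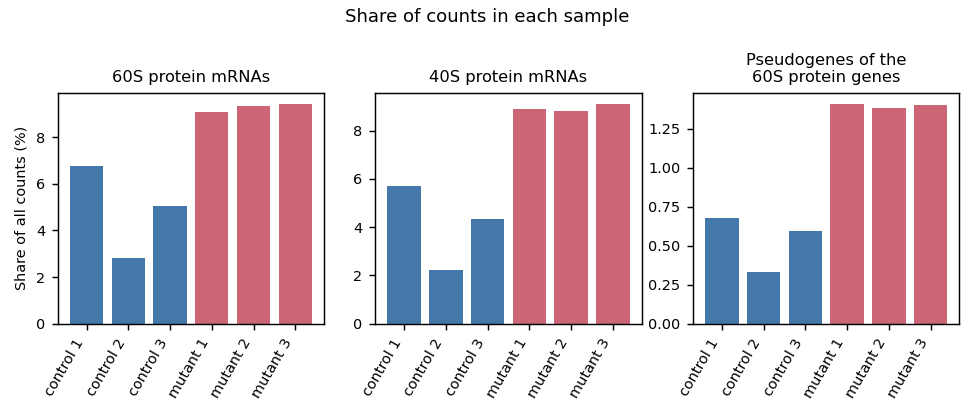
Share of all counts in percent (vertical axes, each from 0 and on its own scale) in the 3 control (blue) and 3 mutant (red) samples, for the 45 large (60S) subunit protein genes, the 33 small (40S) subunit protein genes and the pseudogenes of the large subunit genes. Control 2 is the lowest bar in each panel, and the 3 mutant bars lie above all control bars (9.09 to 9.43% against 2.81 to 6.78% for the large subunit).

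Gene by gene, 43 of the 45 members had a log2 fold change above 0, against 48.2% of all genes tested, and the median over the members was 1.14 (2.21-fold) against -0.04 over all genes. By the threshold of the study, an unadjusted p under 0.05 together with more than a 1.5-fold change, 29 of the 45 members rose and 0 fell. Over all 15826 genes 10.9% rose by that rule and 8.92% fell. At an adjusted p under 0.05, 6 members rose and 0 fell, against 3.72% and 3.06% of all genes (two-sided quasi-likelihood test of edgeR, p adjusted by Benjamini-Hochberg across the genes tested). The 6 were Rpl35, Rpl30, Rplp1, Rpl27a, Rpl36 and Rpl37. All 3 mutant samples lay above all 3 control samples for 37 members, against 14.1% of all genes, and below them for 0 members, against 16.3% of all genes.

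The adjusted calls lie close to the threshold. Of the 6, 4 had an adjusted p between 0.04 and 0.05, as had 780 genes in all, and a further 10 members were between 0.05 and 0.1. No member passed the adjusted threshold by edgeR when control 3, mutant 2 or mutant 3 was left out, or when the test was restricted to protein-coding genes, while 22, 23, 21 and 33 members had an unadjusted p under 0.05 in those fits. Of all genes, 0.474, 0.702, 0.777 and 0.363% passed the adjusted threshold as higher there. Leaving out control 1 left 1 member (Rpl30), with 0.941% of all genes, and leaving out mutant 1 left 2 (Rpl30 and Rpl35), with 2.73%. DESeq2 on the same counts called 28 members higher at an adjusted p under 0.05 and 0 lower, the 6 among them, and 6.67% and 3.24% of all genes.

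**Figure D2:**
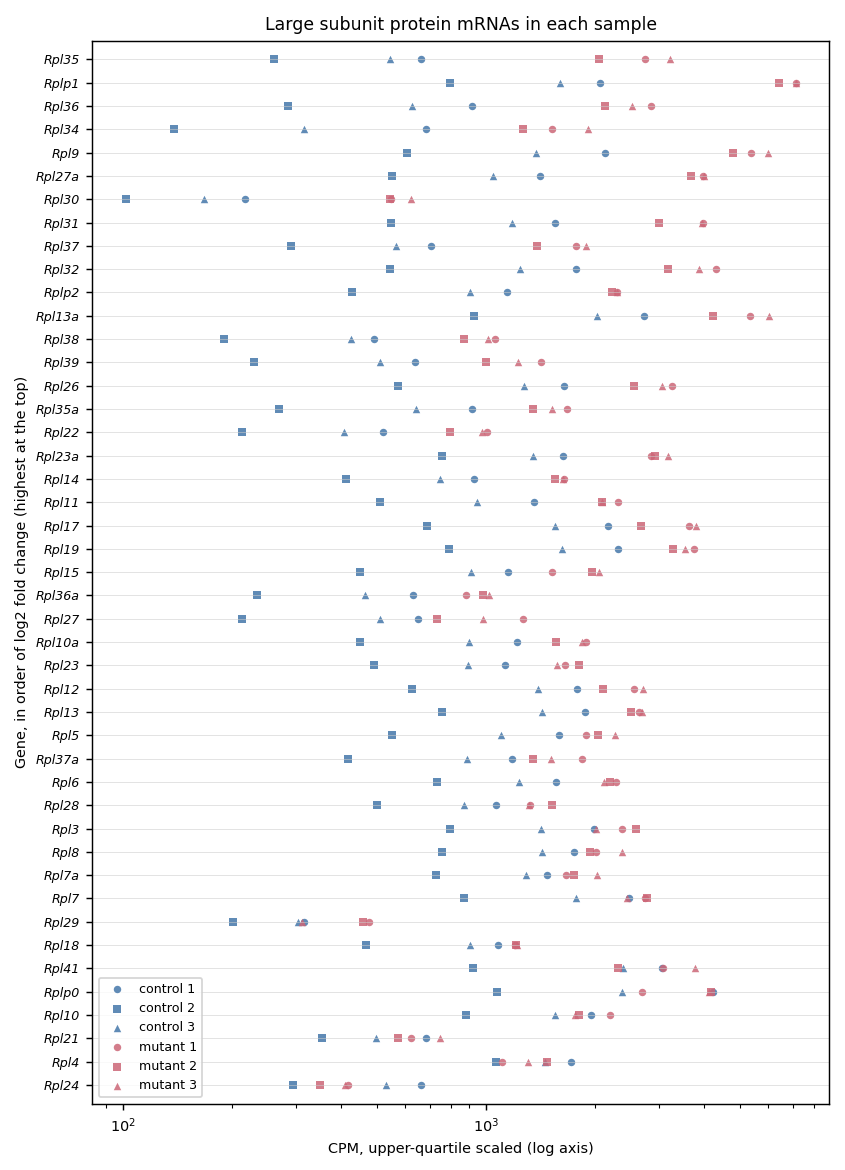
Level of each of the 45 mRNAs in CPM (horizontal log axis) in the 3 control (blue) and 3 mutant (red) samples, ordered by log2 fold change from Rpl24 (-0.34, bottom) to Rpl35 (2.45, top). Control 2 (blue square) is the lowest and control 1 (blue circle) the highest control in all 45 rows, and red points lie to the right of all blue points in 37 rows.

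Rpl35, Rplp1, Rpl34, Rpl36 and Rpl9 had the highest fold changes. Rpl35, which sits at the rim of the tunnel exit, where the signal recognition particle and nascent chain factors dock, was at 663, 260.3 and 546 CPM in control and 2748, 2044 and 3210.0 CPM in mutant samples (log2 fold change 2.45, standard error 0.43, adjusted p = 0.0329). Rplp1, an acidic protein of the stalk, was at 2068, 798 and 1605 CPM in control and 7138, 6424 and 7144 CPM in mutant samples (log2 fold change 2.21, standard error 0.45, adjusted p = 0.0445). Both rose, and their lowest mutant sample was above 3 times the highest control sample. Rpl34 was at 685, 138 and 316 CPM in control and 1521, 1262 and 1910.3 CPM in mutant samples (log2 fold change 2.04, standard error 0.55, adjusted p = 0.0706). Rpl36 was at 917, 285 and 626 CPM in control and 2851, 2127 and 2527 CPM in mutant samples (log2 fold change 2.04, standard error 0.45, adjusted p = 0.0464). Rpl9, which lies near the base of the stalk, was at 2129, 606 and 1377 CPM in control and 5357, 4789 and 5988 CPM in mutant samples (log2 fold change 1.97, standard error 0.50, adjusted p = 0.0542). The groups did not overlap for any of these 3, of which Rpl36 passed the adjusted threshold and all passed that of the study. The other members past the adjusted threshold were Rpl30 (log2 fold change 1.82, standard error 0.32, adjusted p = 0.0329), Rpl27a (log2 fold change 1.95, standard error 0.41, adjusted p = 0.0464) and Rpl37 (log2 fold change 1.69, standard error 0.39, adjusted p = 0.0464).

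At the other end, Rpl24, Rpl4, Rpl21, Rpl10 and Rplp0 had the lowest fold changes, and none passed either threshold. Rpl24, which reaches from the large subunit to a contact with the small subunit, was at 664, 295 and 531 CPM in control and 416, 349 and 409 CPM in mutant samples (log2 fold change -0.34, standard error 0.33, adjusted p = 0.648). Its mutant samples lay between the lowest and the highest control sample. Without control 2 its log2 fold change was -0.61 and it passed the threshold of the study as lower. Rpl21 was at 685, 353 and 497 CPM in control and 622, 573 and 747 CPM in mutant samples (log2 fold change 0.34, standard error 0.31, adjusted p = 0.63). Rpl10, which joins late in assembly and reaches close to the peptidyl transferase centre, was at 1949, 880.2 and 1549 CPM in control and 2193, 1810.0 and 1759 CPM in mutant samples (log2 fold change 0.40, standard error 0.37, adjusted p = 0.634). In both, control 2 held the lowest and a mutant sample the highest value, and the groups overlapped.

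Rpl5 and Rpl11 form the 5S particle with the 5S ribosomal RNA, and it also binds Mdm2 when it is free of the ribosome. Of these 2 members 1 rose by the threshold of the study, against 10.9% of all genes. Rpl11 was at 1355, 510.1 and 946 CPM in control and 2308, 2093 and 2095 CPM in mutant samples (log2 fold change 1.21, standard error 0.40, adjusted p = 0.126), and it rose by that threshold. Rpl5 was at 1590.0, 550.3 and 1101 CPM in control and 1885, 2042 and 2272 CPM in mutant samples (log2 fold change 0.94, standard error 0.41, unadjusted p = 0.0529, adjusted p = 0.256). Both pairs of groups were free of overlap, with the mutant samples higher, against 14.1% of all genes.

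The stalk, on which Rplp0 carries dimers of Rplp1 and Rplp2 and whose base includes Rpl12, was uneven. Rplp2 was at 1146, 428 and 903 CPM in control and 2301, 2222 and 2298 CPM in mutant samples (log2 fold change 1.46, standard error 0.40, adjusted p = 0.074) and rose by the threshold of the study, as did Rplp1. Rpl12 was at 1777, 627 and 1389.8 CPM in control and 2551, 2100.1 and 2709 CPM in mutant samples (log2 fold change 0.96, standard error 0.42, adjusted p = 0.255), with no overlap, and did not pass. Rplp0, the anchor of the stalk, was at 4231, 1076 and 2372 CPM in control and 2687, 4177 and 4109 CPM in mutant samples (log2 fold change 0.52, standard error 0.52, adjusted p = 0.666). Its highest value of all was in control 1 and its groups overlapped. The log2 fold changes of the stalk proteins ran from 0.52 to 2.21.

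In the wall of the exit tunnel, Rpl4 and Rpl17 reach into the lumen and Rpl39, a protein of 51 residues, lies further out towards the exit. Rpl4 was at 1719.9, 1068 and 1458 CPM in control and 1105, 1475 and 1308 CPM in mutant samples (log2 fold change -0.13, standard error 0.31, adjusted p = 0.88), with overlapping groups. Without control 1 its log2 fold change was 0.035. Rpl17 was at 2169, 690.1 and 1552 CPM in control and 3632, 2682 and 3785 CPM in mutant samples (log2 fold change 1.20, standard error 0.46, adjusted p = 0.19), and Rpl39 was at 638, 229 and 510.1 CPM and 1418, 1001 and 1222 CPM (log2 fold change 1.40, standard error 0.40, adjusted p = 0.0867). Both rose by the threshold of the study, with no overlap between the groups, against 10.9 and 14.1% of all genes.

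All 6 proteins of the rim of the tunnel exit rose by the threshold of the study, against 10.9% of all genes. The mutant samples lay above the control samples for each, against 14.1% of all genes. Rpl31 was at 1549, 547 and 1179 CPM in control and 3969.8, 3002 and 3936 CPM in mutant samples (log2 fold change 1.74, standard error 0.44, adjusted p = 0.0558). Rpl26 was at 1644, 572 and 1276 CPM in control and 3248, 2553 and 3058 CPM in mutant samples (log2 fold change 1.34, standard error 0.43, adjusted p = 0.119). Rpl22 was at 521, 213 and 406 CPM in control and 1010.1, 794 and 974 CPM in mutant samples (log2 fold change 1.28, standard error 0.36, adjusted p = 0.0808). The log2 fold changes of these 3 lay between 1.28 and 1.74, while their adjusted p-values stayed above 0.05. Rpl23a was at 1631, 757 and 1345 CPM in control and 2845, 2924 and 3169.7 CPM in mutant samples (log2 fold change 1.26, standard error 0.37, adjusted p = 0.0924). Rpl19 was at 2312, 793 and 1619 CPM in control and 3749, 3284 and 3539 CPM in mutant samples (log2 fold change 1.16, standard error 0.43, adjusted p = 0.177). With Rpl35, described above, the 6 had a median log2 fold change of 1.31.

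The remaining members not yet given were Rpl3, Rpl6, Rpl7, Rpl7a, Rpl8, Rpl10a, Rpl13, Rpl13a, Rpl14, Rpl15, Rpl18, Rpl23, Rpl27, Rpl28, Rpl29, Rpl32, Rpl35a, Rpl36a, Rpl37a, Rpl38 and Rpl41. Their log2 fold changes ran from 0.53 (Rpl41) to 1.67 (Rpl32). Of these 21, 12 rose by the threshold of the study, against 10.9% of all genes. The 12 were Rpl6, Rpl10a, Rpl13, Rpl13a, Rpl14, Rpl15, Rpl23, Rpl27, Rpl32, Rpl35a, Rpl36a and Rpl38. Rpl38, which is known for its part in the translation of Hox mRNAs in the embryo, was at 491, 189.6 and 426 CPM in control and 1059, 868 and 1013 CPM in mutant samples (log2 fold change 1.41, standard error 0.38, adjusted p = 0.07). The 7 members with a pyrimidine run at an annotated start had log2 fold changes from 0.77 (Rpl28) to 2.45 (Rpl35), with a median of 1.32. The 27 with a window and no run there ran from -0.34 to 2.04, with a median of 1.04, and the ranges overlap. Some of the 27, such as Rpl7a and Rpl27a, have pyrimidine runs around an annotated base that is not a C. The split is therefore not one of mRNAs with and without the TOP motif.

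The members differed widely in level per length of transcript. In control samples Rpl41, a peptide of 25 residues that bridges the subunits, was highest with a mean of 4849.5 CPM per kilobase, followed by Rplp1 with 2986 and Rpl32 with 2293. Rpl30 (183), Rpl22 (185) and Rpl21 (276) were lowest by the same measure. In mutant samples Rplp1 came first with 13832 CPM per kilobase, and Rpl41 had 6983. In CPM, Rpl41 was at 3058, 919 and 2380.4 in control and 3070.0, 2317 and 3768 in mutant samples (log2 fold change 0.53, standard error 0.48, adjusted p = 0.629). Rpl32 was at 1774, 543 and 1239.8 CPM in control and 4301, 3182 and 3855 CPM in mutant samples (log2 fold change 1.67, standard error 0.47, adjusted p = 0.0791), and Rpl30 at 217, 102 and 167 CPM and 549, 546 and 622 CPM. Rpl32 and Rpl30 were higher in every mutant sample than in any control sample, and Rpl41 was not. The proteins stand in equal numbers in the finished subunit except for the stalk dimers, and the lengths used are those of reference transcripts, so a level per kilobase also carries the choice of transcript. It also depends on where reads of near-identical copies were counted. With the counts on matched pseudogenes added, an alternative chosen after seeing the data, the control level of Rpl30 was 377 CPM per kilobase, above Rpl22 (186) and Rpl21 (289). Rpl41 and Rplp1 then stayed highest, and Rplp0 (2617) lay above Rpl32 (2297).

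Relative levels within the set were compared next, since the ratio of a member to the median member of the same sample does not change with the scaling of that sample. On this log2 scale 14 members were higher in every mutant than in every control sample, 12 were lower, and 19 overlapped. Over all genes tested, set against the same median member, 3.02% were higher and 51.7% lower. Those 2 shares follow largely from the yardstick, since the median log2 fold change was 1.14 over the members and -0.04 over all genes. They are therefore no measure of how many shifts to expect within the set. Rpl35 moved from -1.03, -0.97 and -0.79 in control to 0.45, 0.056 and 0.65 in mutant samples, and Rplp1 from 0.61, 0.64 and 0.76 to 1.83, 1.71 and 1.80. Rpl24 moved the other way, from -1.03, -0.79 and -0.83 in control to -2.27, -2.49 and -2.32 in mutant samples, and Rpl4 from 0.34, 1.07 and 0.62 to -0.86, -0.42 and -0.65. Rpl19 is an example of a member that kept its place, with 0.77, 0.64 and 0.78 in control and 0.90, 0.74 and 0.79 in mutant samples. The counts on the 45 genes did not shift by a common factor between the groups. They leave out reads counted on near-identical copies, whose part differed between the groups for many members, as described below. With counts on matched pseudogenes added, an alternative chosen after seeing the data, the log2 fold change was 1.92 for Rpl35, 2.24 for Rplp1 and 0.006 for Rpl24. Fold change also fell with coding length (Spearman's rho -0.53), and the part of either in these shifts was not tested.

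The 3 control samples differed from each other in all members together. Control 2 was the lowest and control 1 the highest control sample for 45 of 45 members. The difference between these 2 samples had a median of 1.37 on the log2 scale over the members (0.64 to 2.31), against 0.093 over all genes tested. Between control 1 and control 3 it was 0.37, against 0.083. The SD of log2 CPM among the 3 control samples had a median of 0.71 over the members (0.35 for Rpl4 to 1.15 for Rpl34), 0.32 over all genes, and 0.48 over the 339 other genes with a level at or above that of the lowest member. Without control 2 the median SD of the members was 0.26, and without control 3 it was 0.97.

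The mutant samples were close together. The median SD among them was 0.16 over the members (0.0079 for Rpl18 to 0.40 for Rpl27), 0.64 over all genes and 0.22 over the same 339 genes. The SD was larger in control than in mutant samples for 45 of 45 members and for 74.6% of those genes. The largest control spreads were those of Rpl34, Rplp0 (0.99) and Rpl9 (0.92), and the smallest those of Rpl4, Rpl29 (0.36) and Rpl21 (0.48). Rpl29 was at 315, 201 and 303 CPM in control and 475, 459 and 312 CPM in mutant samples (log2 fold change 0.61, standard error 0.29, adjusted p = 0.298). Control 2, the sample with the lowest members, also held the most skeletal muscle RNA of the controls (0.338% of counts) and the largest share of odontoblast markers (7.94%). Without control 2 the median log2 fold change of the members was 0.84 and 32 members rose and 1 (Rpl24) fell by the threshold of the study, against 8.88 and 5.61% of all genes.

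**Figure D3:**
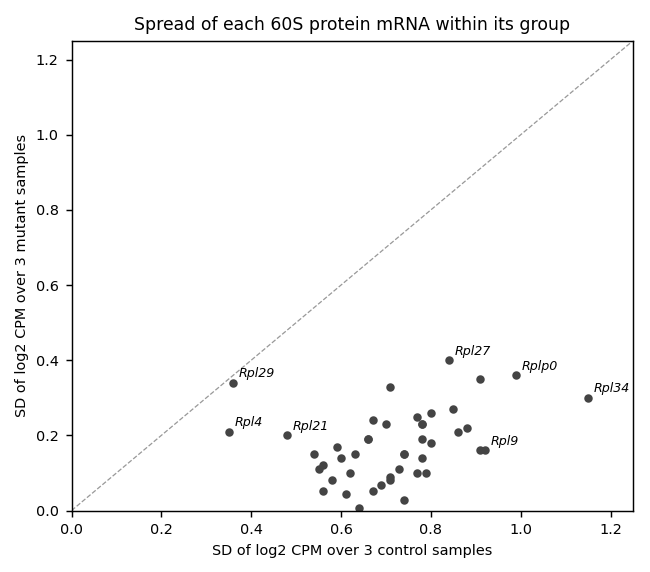
SD of log2 CPM over the 3 control samples (horizontal axis) against the SD over the 3 mutant samples (vertical axis), a point for each of the 45 genes, with a dashed line where both are equal. All 45 points lie below the line, with Rpl34 (1.15) farthest to the right and Rpl4 (0.35) farthest to the left.

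Fold change depended on transcript length across the whole transcriptome, and the members are short. Their transcripts in the reference annotation were 383 to 2051 bases long with a median of 833, against a median of 3015 for other protein-coding genes. Other protein-coding genes of up to 600 bases had a median log2 fold change of 1.27 (169 genes), those of 600 to 1000 bases 0.75 (618), those of 1000 to 2000 bases 0.16 (2864), those of 2000 to 4000 bases -0.21 (5659) and longer ones -0.27 (4398). In the same classes, the members had medians of 1.33 (10 genes), 1.16 (19), 0.93 (14) and 1.11 (2). The median of the shortest members was thus close to that of other genes of their length, and the medians of the longer classes were above those of other genes in the same class. Single members did not all follow, since 6 of the 19 members of 600 to 1000 bases (Rpl7a, Rpl8, Rpl10, Rpl18, Rpl24 and Rpl29) and 1 of the 14 of 1000 to 2000 bases (Rpl4) lay below the median of the other genes in their class. By the threshold of the study, 8 of the 10 members of up to 600 bases rose, against 55% of the other genes of that length. Of the members of 600 to 1000 bases 13 of 19 rose, against 31.7%, and of those of 1000 to 2000 bases 7 of 14, against 10.5%.

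Within the set, Spearman's rho between log2 fold change and transcript length was -0.28, and -0.53 with coding length, over 45 genes that share the same libraries. A length trend was also present between control samples. The difference between control 1 and control 2 had a median of 0.91 over other genes of up to 600 bases, 0.84, 0.51 and 0.083 over the next classes and -0.44 over the longest. For the members it was 1.51, 1.35, 1.33 and 1.41 in the classes they fill.

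With transcript length and GC content corrected for, in a fit made without ribosomal protein genes, the median log2 fold change of the members was 0.23, against -0.037 over all genes, and 31 members were above 0. By the threshold of the study 13 members then rose, against 6.89% of all genes, and 2 fell (Rpl24 and Rpl37a), against 7.22%. The 13 were Rpl9, Rpl13a, Rpl14, Rpl22, Rpl27a, Rpl30, Rpl31, Rpl34, Rpl35, Rpl36, Rpl37, Rplp1 and Rplp2, all of which also rose before the correction. At an adjusted p under 0.05 by edgeR, Rpl35 was higher (corrected log2 fold change 1.94, adjusted p = 0.039) and Rpl24 lower (-1.51, adjusted p = 0.0317), against 0.727% and 0.145% of all genes. The corrected values fell for all 45 members, and for 12 of them the direction turned. Of these 12, 6 were among the 10 members of up to 600 bases, 5 among the 19 of 600 to 1000 bases and 1 among the 14 of 1000 to 2000 bases. After the correction the medians were higher in the longer classes. The corrected medians of the members were -0.17, 0.12, 0.47 and 0.83 from the shortest class to the longest, against -0.28, -0.11, -0.077 and -0.038 for other protein-coding genes. Spearman's rho between corrected log2 fold change and transcript length was 0.40 over the 45 members, and -0.05 with coding length.

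**Figure D4:**
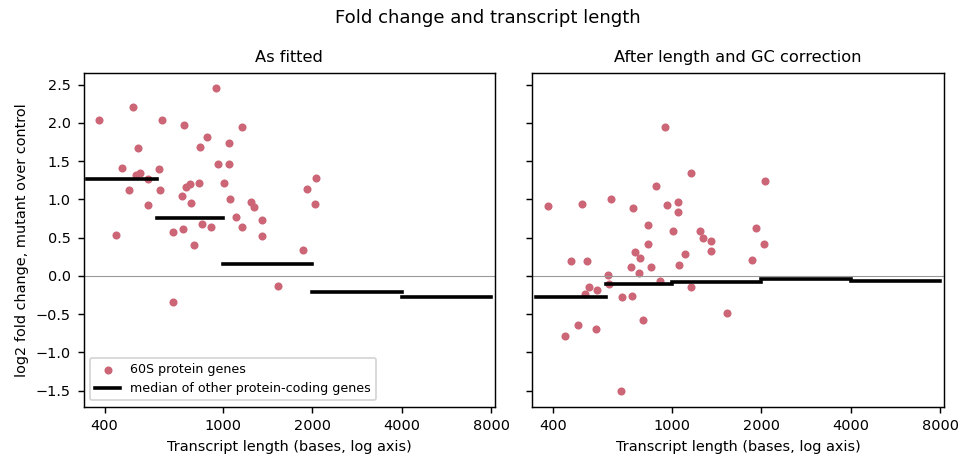
log2 fold change of mutant over control (vertical axis) against transcript length (horizontal log axis) for the 45 large subunit genes (red points), as fitted and after the length and GC correction. Black bars are the medians of other protein-coding genes in 5 length classes, which fall from 1.27 to -0.27 in the left panel and lie between -0.28 and -0.038 in the right panel.

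Ribosomal protein genes have many processed pseudogenes, copies of the spliced mRNA elsewhere in the genome, and reads from a gene can be counted on its copy. Among the genes counted, 293 entries matched a member, 91 by name and 202 by sequence, and 42 of the 45 members had at least 1. Rpl8, Rpl41 and Rplp2 had none. Counts on these entries were 11.2% ± 1.02 of the members' own counts in control samples (SD, n = 3) and between 14.7 and 15.5% in mutant samples. Counts on pseudogenes relative to the parent were higher in every mutant than in every control sample for 25 members, lower for 9 and overlapping for 8. By name alone, a match chosen after seeing the data, it was higher for 18 of 31 members and lower for 5. Of 157 other genes with a named pseudogene, 39.5% were higher in every mutant sample and 8.92% lower, with a median of 438 pseudogene counts over the 6 samples against 8036 for the members.

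The split between parent and copies was close to constant within a group for many members and differed between the groups in both directions. For Rpl12 it was 3.55, 3.58 and 3.69% in control and 34.2, 34.7 and 30.9% in mutant samples, most of it on Gm10275, whose sequence is identical to the parent's over the aligned stretch. For Rpl37a it was 2.15, 2.07 and 2.17% in control and 23.1, 31.6 and 23.1% in mutant samples. For Rpl5 it was 51.8, 54.3 and 51.7% in control and 156, 123 and 142% in mutant samples, so that Gm15500 held more counts than Rpl5 itself in the latter. In the other direction, Rpl38 had 21.9, 22.1 and 19% in control and 3.97, 3.77 and 4.24% in mutant samples. Rpl35 had 69, 65.8 and 71.5% in control and 18.7, 16.4 and 15.2% in mutant samples, nearly all on Gm2000, an entry of 99.6% identity that the annotation calls protein-coding. Rpl30 had 108, 105 and 104% in control and 47.5, 52.3 and 29.9% in mutant samples. The split of Rplp0 and Rpl34 did not follow the genotype in this way. For Rplp0 it was 22.7, 58.3 and 58.8% in control and 57.6, 25.3 and 26.8% in mutant samples, high in control 2, control 3 and mutant 1 and low in the other samples. For Rpl34 it was 20.8, 92.5 and 86.5% in control and 22.6, 19.2 and 9.39% in mutant samples, high in control 2 and control 3.

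**Figure D5:**
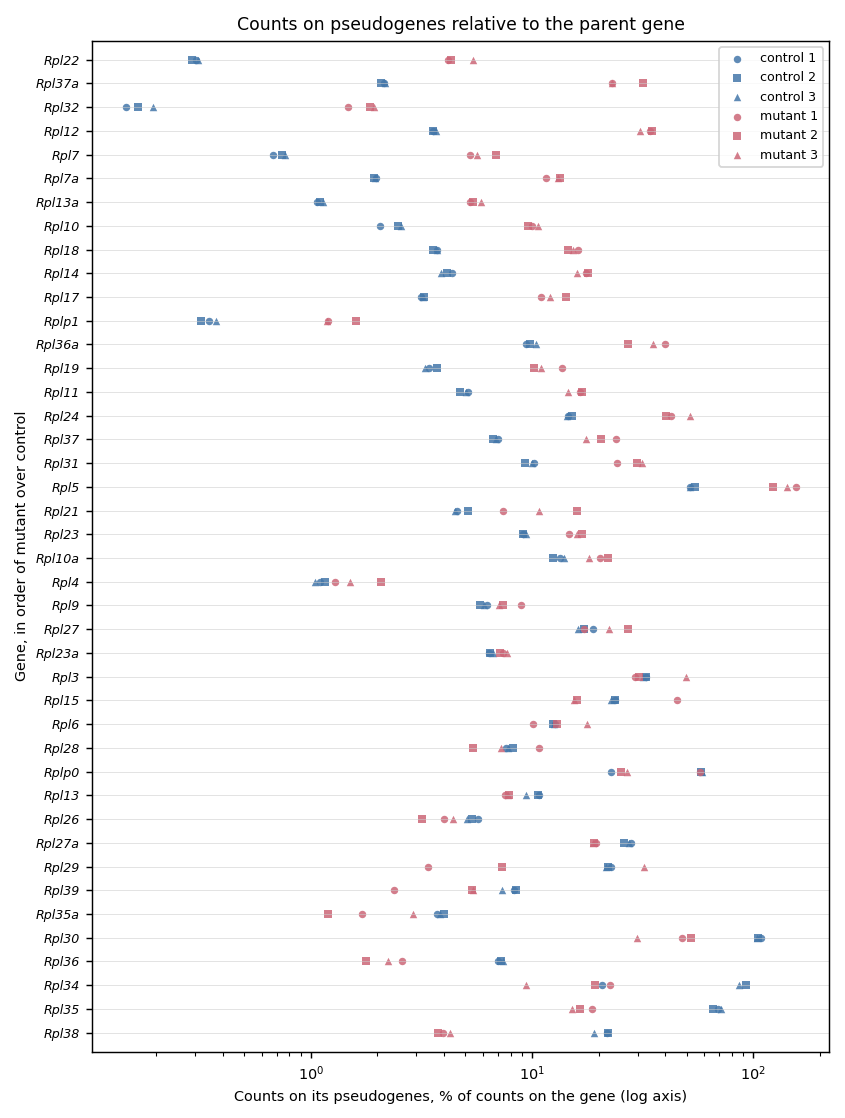
Counts on all matched pseudogenes as a percentage of the counts on the parent gene (horizontal log axis) for the 42 genes with at least 1, in the 3 control (blue) and 3 mutant (red) samples, ordered by the ratio of mutant to control. Red points lie to the right of all blue points for 25 genes and to the left for 9 (Rpl38 at the bottom, 19.0 to 22.1% in control and 3.77 to 4.24% in mutant samples).

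Adding the pseudogene counts to their parent, an alternative chosen after seeing the data, kept the direction of every member but Rpl24, which came to 0.006. The median log2 fold change was then 1.28, 32 members rose by the threshold of the study, the earlier 29 among them (10.3% of all genes), and 39 members had mutant samples above all control samples. The adjusted calls did not remain, with 0 members at an adjusted p under 0.05 by edgeR (1.39% of all genes) and 32 at an unadjusted p under 0.05. The log2 fold change of Rpl35 moved from 2.45 to 1.92 and that of Rpl30 from 1.82 to 1.30, while that of Rpl5 moved from 0.94 to 1.60. The control SD of Rpl34 moved from 1.15 to 0.84 and that of Rplp0 from 0.99 to 0.83.

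Paralogs that can stand in for a member were read beside their partners. Rpl22l1, the paralog of Rpl22, was at 158, 57.4 and 123 CPM in control and 454, 428 and 547 CPM in mutant samples (log2 fold change 2.08, standard error 0.38, adjusted p = 0.0374), and it rose. Rpl36al was at 242, 91.2 and 187 CPM in control and 389, 338 and 427 CPM in mutant samples (log2 fold change 1.15, standard error 0.36, adjusted p = 0.112), and Rpl39l, otherwise known from testis, at 11.8, 4.56 and 8.61 CPM and 22.3, 18.7 and 49.4 CPM (log2 fold change 1.86, standard error 0.55, adjusted p = 0.0921). These 3 rose by the threshold of the study, against 10.9% of all genes. Their mutant samples lay above their control samples, against 14.1% of all genes. Rpl7l1 was at 106, 62.3 and 87.5 CPM in control and 98.4, 106 and 94.5 CPM in mutant samples (log2 fold change 0.23, standard error 0.25, adjusted p = 0.7). Rpl3l, the form of Rpl3 in striated muscle, was at 0.0583, 9.29 and 0.0867 CPM in control and 45.6, 0 and 2.22 CPM in mutant samples (log2 fold change 2.32, standard error 2.23, adjusted p = 0.649), highest in mutant 1, control 2 and mutant 3, the samples with skeletal muscle markers. Rpl10l was not analysed here. After the length and GC correction none of the paralogs named here with values passed the threshold of the study.

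The large subunit was set beside the small subunit, the mitochondrial ribosome, the factors that assemble it and other mRNAs with a TOP motif. Of the 33 small subunit protein genes, 28 rose and 0 fell by the threshold of the study, against 10.9 and 8.92% of all genes. After the length and GC correction 10 rose and 1 fell, against 6.89 and 7.22% of all genes. The median log2 fold change of the 33 genes was 1.29 (0.48 after the length and GC correction). Their share of counts was 2.22 to 5.69% in control and 8.82 to 9.12% in mutant samples. The smallest p-values among them were those of Rps21 (log2 fold change 2.14, standard error 0.45, adjusted p = 0.0464) and Rps27a (log2 fold change 1.89, standard error 0.42, adjusted p = 0.0464). The difference between small and large subunit genes was not tested.

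Of the 49 large subunit proteins of the mitochondrial ribosome, 18 rose and 1 fell, against 10.9 and 8.92% of all genes. After the correction 10 rose and 4 fell, against 6.89 and 7.22% of all genes. The median log2 fold change was 0.59 (0.26 after the correction). Mrpl42 (log2 fold change 1.72, standard error 0.26, adjusted p = 0.0174) and Mrpl50 (log2 fold change 1.36, standard error 0.28, adjusted p = 0.0445) rose and Mrpl10 (log2 fold change -1.12, standard error 0.30, adjusted p = 0.064) fell by the threshold of the study. Of the 59 genes for large subunit assembly and RNA polymerase I, which makes the ribosomal RNA precursor, 7 rose and 0 fell. The part that rose was near the 10.9% of all genes. After the correction 4 rose and 1 fell, against 6.89 and 7.22% of all genes. The median log2 fold change of the 59 genes was 0.01 (-0.074 after the correction). Their share of counts was 0.246 to 0.292% in control and 0.274 to 0.331% in mutant samples, 1.11 times the control mean, where the large subunit proteins had 1.91 times. The 2 with the smallest p were Npm1, the nucleolar protein nucleophosmin (log2 fold change 1.15, standard error 0.28, adjusted p = 0.0479), and Rsl24d1, which holds the place of Rpl24 in the precursor particle (log2 fold change 1.22, standard error 0.31, adjusted p = 0.0596). These assembly genes have a median transcript length of 2597 bases, against 833 for the members.

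Of 14 other mRNAs with a TOP motif, 6 rose and 1 fell, against 10.9 and 8.92% of all genes. After the correction 4 rose and 0 fell, against 6.89 and 7.22% of all genes. The median log2 fold change was 0.58 (0.24 after the correction). Tpt1, translationally controlled tumour protein (log2 fold change 1.66, standard error 0.49, adjusted p = 0.0925) and the initiation factor subunit Eif3e (log2 fold change 1.48, standard error 0.29, adjusted p = 0.0423) rose by the threshold of the study. Eef2, the elongation factor that binds at the stalk and moves the ribosome along the mRNA, was at 2844, 2661 and 2858 CPM in control and 1572, 1890.3 and 1499.9 CPM in mutant samples (log2 fold change -0.75, standard error 0.30, unadjusted p = 0.0362, adjusted p = 0.208). It fell by the same threshold, and its groups did not overlap.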

How the data were processed

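RNA-seq counts of proximal incisors from 3 control and 3 mutant mice were analysed, with groups from the sample titles. The authors trimmed single reads and aligned them to mm10 with Partek Flow, and what they deposited are estimated counts for each gene, without normalization. TopHat2 2.0.8 is named in the submitters' processing notes. The annotation and how reads with several matches were assigned are not given in the sources used here, which bears on paralogs and pseudogenes. A deposited table of the authors' own comparison (p-values and fold changes) was not used.

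Estimated counts were rounded, filtered by edgeR's default (minimum count 10, minimum total 15), scaled by the upper quartile and tested with edgeR 4.0.16 (glmQLFTest, R 4.3.3, genotype as the only term). Standard errors are approximate, from the log2 fold change and F. Log2 CPM used a pseudocount of 0.5. GENCODE M21 (GRCm38) gave transcript lengths and GC content and matched 18599 symbols directly and 217 through a synonym. Pseudogenes were matched by name, or by sequence at 85% identity over 50% of the coding length. The test was run on simulated counts of 15633 genes, 197 of them with changes of 2- or 4-fold. At an adjusted p under 0.05 it recovered 74.6% of the changes and made 9 false calls. The simulation gave all genes in both groups the same relative spread and no length trend, unlike these data. It therefore cannot show how the test performs on these libraries. Alternatives were other scalings, filters and DESeq2 1.42.0, each replicate left out, a replicate block, a length and GC correction, thinned control counts, protein-coding genes only, and pseudogenes summed.

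Total counts ran from 5276557 to 32712448. The labels name no litter or batch. Genes without a count made up 3.83 to 3.96% of the count table in control and 17.1 to 30.3% in mutant samples. An effect of genotype cannot be told apart from such differences between the control and mutant libraries. The p-values take the spread between samples of a group as their error and do not account for these differences. The members, gene lists and alternatives were chosen with earlier results of these data known. Every member was counted, and values per sample are given for the role groups, the 5 highest and 5 lowest fold changes, the 3 highest and 3 lowest levels per length, the 3 largest and 3 smallest control spreads and the paralogs, of which 1 is not reported here. Rpl38 and the pseudogene splits were picked after their values were seen. Of each other list, the genes with the smallest p, at most 2 in each direction, are named.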

Additional observations from a re-analysis of the deposited data

How the results depend on the processing

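The median log2 change of the members was between 0.84 and 1.46 when each replicate was left out in turn and between 0.90 and 1.28 under the other alternatives, except for 0.23 after the length and GC correction. Without any scaling beyond total counts the median of all genes was -0.30, and that of the members 0.90. The number of members higher at an adjusted p under 0.05 was 6 as reported, 2 without a filter, 1 with the length and GC correction (and 1 lower), 0 with protein-coding genes only, 0 with named and matched pseudogenes summed, 28 by DESeq2, and 0 to 5 without 1 replicate. Of all genes, 3.72, 1.1, 0.727 (0.145 lower), 0.363, 1.39 and 6.67% were higher in the same fits in turn, and 0.474 to 2.73% without 1 replicate. By the threshold of the study, 13 rose and 2 fell with the length and GC correction, against 29 and 0, and 21 to 35 rose and 0 to 1 fell without 1 replicate. Of all genes, 6.89% rose and 7.22% fell with the correction, against 10.9 and 8.92%. Without 1 replicate, 7.88 to 12.2% of all genes rose and 4.97 to 16.5% fell. The labels state no pairing of the samples, though the paper writes of 3 pairs. Same-numbered samples correlated at 0.0472, 0.00937 and 0.0548 in their deviations from the group means. Differently numbered samples were not compared, so these values cannot decide whether the samples are paired. With a replicate block, 12 members were higher at an adjusted p under 0.05, the 6 among them, against 2.73% of all genes higher and 0.48% lower (3.72% and 3.06% without the block). The share of counts differed by 4.41 percentage points, and by 3.38 to 5.37 without 1 replicate. The median control SD was 0.71, and 0.26 to 0.97 without 1 control.

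After the length and GC correction the log2 change turned below 0 for Rpl41 (-0.79), Rpl37a (-0.69), Rpl36a (-0.64), Rpl10 (-0.58), Rpl18 (-0.27), Rpl29 (-0.26), Rpl35a (-0.24), Rpl23a (-0.19), Rpl26 (-0.15), Rpl7 (-0.14), Rpl27 (-0.11) and Rpl7a (-0.072). The log2 change of Rpl4 was between -0.29 and 0.035 without 1 replicate, above 0 without control 1, and that of Rpl24 came to 0.006 with pseudogenes summed. The cause of these changes was not tested.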

Other observations

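Pseudogene entries of the large subunit genes held 0.329 to 0.679% of all counts in control and 1.38 to 1.41% in mutant samples, so that members and copies together held 3.13 to 7.46% and 10.5 to 10.8%. The entry with the most counts was Gm15500, a transcribed processed pseudogene of Rpl5, with 28247, 10863 and 19691 counts in control and 13299, 29135 and 31544 in mutant samples. Gm10275, a copy of Rpl12, held 2162, 817 and 1769 counts in control and 3988, 8517 and 8299 in mutant samples, although the mutant libraries were smaller. Gm2000, a copy of Rpl35, held 15650, 6226 and 13464 counts in control and 2233, 3735 and 4714 in mutant samples. Rpl34-ps1 held 4783, 4575 and 9258 counts in control and 1393, 2693 and 1643 in mutant samples, and Gm8730, a copy of Rplp0, held 25842, 18363 and 38994 and 5457, 9994 and 8486. Control 2 was the lowest control for each of these copies.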
